A study of Mus musculus with 8 samples.

Results

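Common fragile sites are long stretches of chromosomes that break when DNA replication is slowed, and many of them lie inside very large genes. Expression of 6 such genes (Fhit, Wwox, Immp2l, Nbea, Dmd and Macrod2) was followed in mouse liver after exposure to 4,4'-Methylenebis(2-chlorobenzenamine) (MOCA), an aromatic diamine that serves as a curing agent for polyurethanes. The genes were chosen by symbol, with earlier results of these data known. These 6 were among the 15210 genes listed in the deposited table.

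The livers came from 8 female F1-TKm30 mice, 4 controls given 0% MOCA and 4 mice given 0.05% MOCA, each for 4 weeks. Per the strain label and series design, all of the mice were immunodeficient NOG animals with a transgene. It was the herpes simplex virus thymidine kinase mutant clone 30 driven by the mouse transthyretin enhancer and promoter, which is active in hepatocytes. The stated age is 17 or 21 weeks without an assignment to single animals, so an age difference between the groups was not tested. The treatment label speaks of C57BL mice, which differs from the strain label, and the headings of all 8 deposited columns begin with Wild. How MOCA was given is not stated in the labels.

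A fragile site gene of this kind has small exons scattered over a huge transcription unit, so that an RNA polymerase and the replication machinery can meet within it, and few replication origins fire inside it. Loss of pieces of FHIT and WWOX is frequent in human tumours and in cells under replication stress. The proteins themselves are unrelated. Fhit hydrolyses diadenosine polyphosphates, and Wwox is an adaptor with WW domains and an oxidoreductase fold.

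In the mouse assembly GRCm38 (mm10) the 6 genes span 558.6 kb (Nbea) to 2390 kb (Dmd) of genomic sequence, per RefSeq. Fhit covers chromosome 14 from 9550092 to 11162061, on the minus strand, and its exons make up 0.0925% of that span, the lowest share of the 6. Nbea has the highest share, 5.61%. The longest intron in the principal GENCODE transcript was 639 kb in Wwox, 551 kb in Fhit, 518 kb in Immp2l and 491 kb in Macrod2, and Nbea, with 58 exons, had no intron over 100 kb. Coding length ran from 450 bases in Fhit to 11034 bases in Dmd.

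Each mouse gave 1 library of 15024945 to 17101844 reads over the listed genes, and every MOCA library (at most 15970453 reads) was shallower than every control library (at least 16077424 reads). Values below are the deposited normalised counts (TMM-scaled CPM), in which 1 read was worth 0.0581 to 0.0648. Hepatocyte markers were abundant (Alb at 65200 in controls and 61800 in MOCA livers on average), whereas 2 of 9 lymphocyte and natural killer cell markers were listed, with a summed value of 1.83 or less in each library. In bulk tissue, fewer cells of a type and less RNA per cell cannot be told apart.

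Of the 6 genes, Fhit fell in MOCA livers and none rose (limma on log2(value + 1), Benjamini-Hochberg adjusted p under 0.05 over 12008 tested genes). Among all tested genes 0.266% were called lower and 0.4% higher, 0.666% in all. With edgeR's quasi-likelihood test on the recovered reads Fhit was called lower (0.275% of tested genes were called lower, 0.675% in either direction). With DESeq2 Wwox was called lower (1.53% lower and 3.29% in either direction, of 11774 genes with an adjusted p). In 2 genes, Fhit and Wwox, every MOCA value was below every control value, as in 4.96% of tested genes. Wwox, Immp2l, Nbea and Dmd did not pass, and Macrod2 lay under the minimum for testing, a value of at least 1 in 4 of the 8 libraries. Fhit met that minimum through the control mice alone, so the count is not read as a property of the group. In a fit without any minimum, which held all 6 genes, 1 was called lower and 0 higher, against 0.23% and 0.296% of all 15210 genes. The median log2 fold change in that fit was -0.25 over the 6 genes and 0.0043 over all genes.

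**Figure D1:**
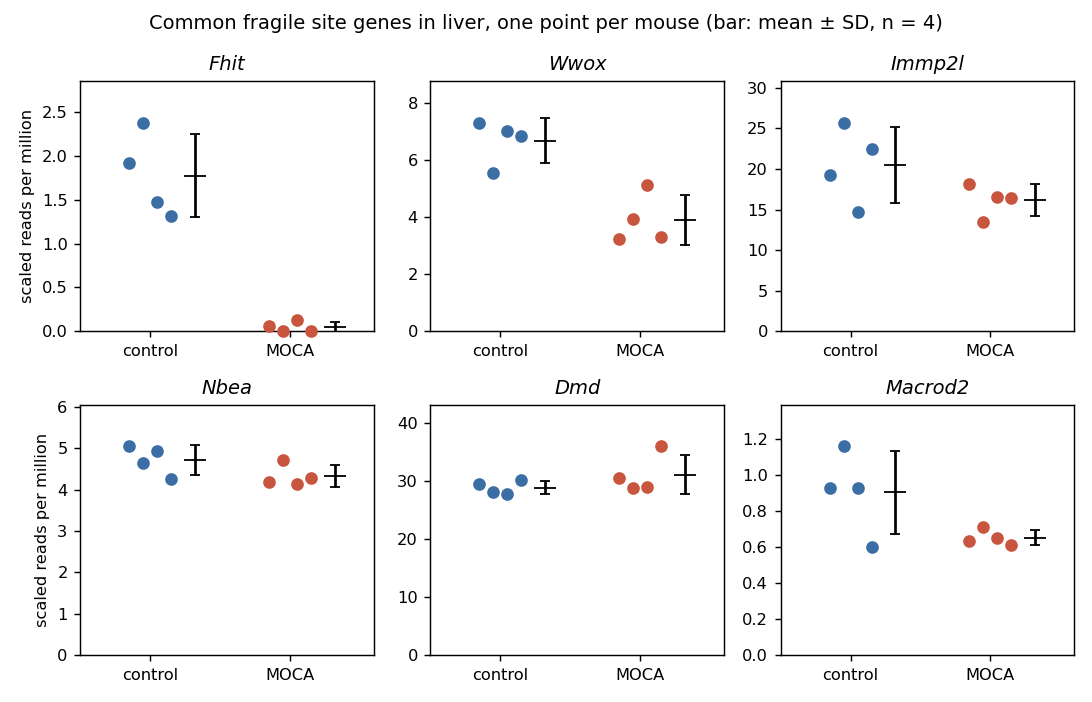
Normalised count (TMM-scaled CPM, vertical axis from 0) of each fragile site gene in each mouse, with controls in blue, MOCA in red, and the mean ± SD of 4 mice as a black bar. The groups do not overlap for Fhit and Wwox, and they overlap for Immp2l, Nbea, Dmd and Macrod2.

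Fhit was the gene most reduced. The 4 control livers had 33, 37, 24 and 22 Fhit reads, and the 4 MOCA livers had 1, 0, 2 and 0. As normalised counts these are 1.92, 2.38, 1.48 and 1.32 in control replicates 1 to 4, and 0.0636, 0, 0.13 and 0 in MOCA replicates 1 to 4. Every MOCA liver was thus far below every control liver, and both MOCA livers without a read allow a value of up to 0.193 (replicate 2) or 0.183 (replicate 4), taking 3 reads as the limit. The mean was 1.78 ± 0.477 in controls and 0.0483 ± 0.0619 in MOCA livers (SD, n = 4 each), so MOCA livers kept 2.72% of the control level.

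On the log2(value + 1) scale, Fhit fell by 1.39 (SE 0.15, 95% interval -1.71 to -1.07, limma adjusted p = 0.00303). This scale compresses the change of a gene with so few reads. Summed over mice, 3 reads stood against 116, a control level 37.1 times that of MOCA with a 95% counting interval of 12.4 to 183 (exact binomial, which covers counting error only and not the spread between mice). With a pseudocount of 0.25 the log2 fold change was -2.76, with a pseudocount of 4 it was -0.51, and edgeR's quasi-likelihood test on the recovered reads gave -5.01 (adjusted p = 0.00265). DESeq2 gave -5.22 at an unadjusted p of 6.25e-09 and no adjusted p, because its own filter on low means set the gene aside.

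Among the 11473 genes whose control values were all at least 1, Fhit was the single gene whose MOCA mean was under 10% of its control mean. This ranking was made after the values of Fhit were seen, on genes selected by their control values, so it is a description with no test and Fhit enters it through the controls alone. The next lowest was Gm14430 at 13.2%, with control livers at 4.76, 37.3, 13.6 and 16.3 and MOCA livers at 8.59, 0.903, 0 and 0, so that its groups overlapped. Then came Dnah11, an axonemal dynein heavy chain, at 22.1% and the zinc transporter Slc30a3 at 23.4%, and 31 genes in all were under 50%. With each mouse left out in turn the share kept by Fhit was 1.19% to 3.63%, and it was the lowest of all in 7 of those 8 settings. Without MOCA replicate 1, Gm14430 was lower and 2 genes were under 10%.

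**Figure D2:**
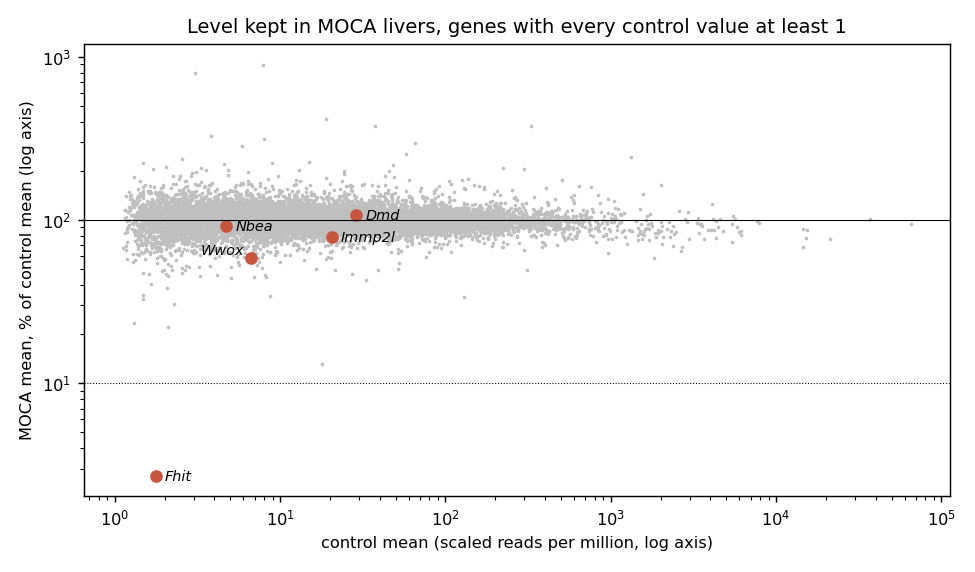
Mean of the 4 MOCA livers as a percentage of the control mean (vertical log axis) against the control mean (horizontal log axis, TMM-scaled CPM) for the 11473 genes with every control value at least 1, with the fragile site genes named above in red. The solid line is 100% and the dotted line 10%, and Fhit, at 2.72%, is the only point under the dotted line.

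The start of Fhit is shown because it is the gene whose RNA nearly vanished and because an additional annotated start lies deep inside the gene. RefSeq promoter entries (GRCm38.p6) matched 5 of the 6 genes. The outer Fhit start in those entries lies slightly inside the outer end of the gene given above, so the final bases of the window overlap the gene as annotated there. The 250 bases before that start, chr14:11162036-11162285 on the minus strand, read as follows with each CG dinucleotide in capitals.
Fhit outer start: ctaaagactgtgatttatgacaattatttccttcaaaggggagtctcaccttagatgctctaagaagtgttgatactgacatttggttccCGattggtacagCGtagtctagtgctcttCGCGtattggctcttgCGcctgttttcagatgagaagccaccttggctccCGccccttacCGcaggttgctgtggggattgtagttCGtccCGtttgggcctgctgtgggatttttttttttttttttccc
This window holds 9 CG dinucleotides, a number reached by 40.3% of 32851 promoter windows of the same length, and its GC content is 46.8%. A CG reads the same on both strands. The inner Fhit start, with its window at chr14:10453459-10453708, has 6. The promoters of Macrod2 (30 and 29 at a pair of neighbouring starts), Nbea (28) and Immp2l (24) are richer, and the Dmd entries hold 2 and 7. The deposited values are per gene, so reads from the outer and inner Fhit starts were not separated.

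Wwox was lower in every MOCA liver, but the difference did not pass. Control replicates 1 to 4 had 7.32, 5.54, 7.03 and 6.84, and MOCA replicates 1 to 4 had 3.25, 3.93, 5.12 and 3.3. Every MOCA value was below every control value, with MOCA replicate 3 close to control replicate 2. The means were 6.68 ± 0.789 and 3.9 ± 0.871 (SD, n = 4 each), a log2 fold change of -0.66 (SE 0.14, interval -0.96 to -0.36, limma adjusted p = 0.0597). The adjusted p was 0.00474 with DESeq2, 0.0457 with robust eBayes and 0.031 without MOCA replicate 3, and 0.0555 to 0.173 in the other 17 alternatives. Wwox lies on chromosome 8 from 114439635 to 115352712.

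Immp2l, a subunit of the peptidase that trims proteins on the inner mitochondrial membrane, had 19.2, 25.7, 14.7 and 22.5 in control replicates 1 to 4 and 18.2, 13.5, 16.6 and 16.4 in MOCA replicates 1 to 4. Control replicate 3 was below 3 of the 4 MOCA livers, and the groups overlapped. The log2 fold change was -0.30 (interval -0.64 to 0.03, limma adjusted p = 0.324), and it was -0.45 without control replicate 3 (adjusted p = 0.2) and -0.19 without control replicate 2 (adjusted p = 0.54).

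Nbea, the scaffold protein neurobeachin, measured 5.05, 4.64, 4.94 and 4.26 in control replicates 1 to 4 and 4.2, 4.71, 4.15 and 4.28 in MOCA replicates 1 to 4. The values intermingled, and the interval of the log2 fold change, -0.32 to 0.11, does not reach the log2 fold change of Wwox (limma adjusted p = 0.634).

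Dmd encodes dystrophin, which ties the actin skeleton to the cell surface, and is the longest of the genes. It measured 29.5, 28.2, 27.7 and 30.2 in control replicates 1 to 4, and 30.6, 28.8, 29 and 36 in MOCA replicates 1 to 4. MOCA replicate 4 stood highest, and the other MOCA livers lay among or just above the controls. The log2 fold change was 0.10 (interval -0.09 to 0.28, limma adjusted p = 0.595), and it was 0.03 without MOCA replicate 4.

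Macrod2, an enzyme that removes ADP-ribose from proteins, was measured by 10 to 18 reads per library. Its normalised counts were 0.93, 1.16, 0.926 and 0.6 in control replicates 1 to 4 and 0.636, 0.709, 0.648 and 0.611 in MOCA replicates 1 to 4. Control replicate 4 was the lowest of all 8 mice and the other controls were above every MOCA mouse. Control replicate 4 and MOCA replicates 1, 3 and 4 each had 10 reads, so their order comes from the scaling alone. The difference of the means was -0.253 (two-sided exact permutation p = 0.143, where 0.0286 is the smallest possible with 4 against 4 mice). Without a minimum for testing, the limma adjusted p was 0.398 and edgeR's quasi-likelihood adjusted p was 0.47.

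**Figure D3:**
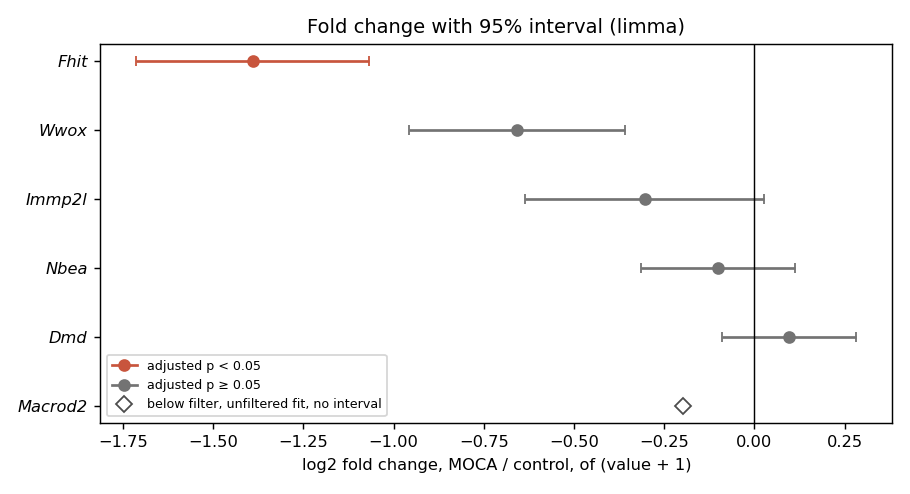
Difference between MOCA and control means of log2(value + 1) for each fragile site gene (horizontal axis), with the 95% interval from limma over 4 mice per group, red where the adjusted p was under 0.05. The intervals of Fhit and Wwox lie below 0 and those of Immp2l, Nbea and Dmd include it; Macrod2 is drawn without an interval from the fit with no minimum.

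Levels were compared between genes per kb of merged exons (all GENCODE isoforms), with the range over 4 mice. In controls Immp2l was highest at 11.2 per kb (8.02 to 14), then Dmd at 1.22 (1.16 to 1.27), Fhit at 1.19 (0.885 to 1.6) and Wwox at 0.657 (0.544 to 0.72). Dmd and Fhit overlapped, and Wwox lay below both. Nbea at 0.151 (0.136 to 0.161) and Macrod2 at 0.0877 (0.0582 to 0.112) were lower and apart. In MOCA livers Fhit, at 0.0324 per kb (0 to 0.0869), had the lowest mean of the 6, overlapping Macrod2 at 0.0632 (0.0593 to 0.0688). Immp2l (8.84) and Dmd (1.31) still had the highest means, and Wwox followed at 0.383.

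Length is what these genes were picked for, so genes of the same length give the background. Of the 56 tested genes, fragile site genes included, spanning 600 kb or more, 4 were called lower (7.14%) and 1 higher (1.79%), and 37 had a negative log2 fold change (66.1%, against 48.9% of all tested genes), with a median of -0.11. For the 2947 genes under 10 kb the corresponding values were 2 lower (0.0679%), 10 higher (0.339%) and a median of 0.01. The median was 0.02 at 10 to 50 kb, -0.01 at 50 to 100 kb, -0.04 at 100 to 300 kb and -0.09 at 300 to 600 kb. The differences between bins were not tested, since genes of a sample are not replicates.

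With the 6 genes set aside, 90 tested genes spanned 500 kb or more. Of these 6 were called lower (6.67%) and 1 higher (1.11%), the median log2 fold change was -0.115, and 18 (20.0%) had every MOCA value below every control value. Over all tested genes these shares were 0.266% lower, 0.4% higher and 4.96% fully separated downward. The lower quartile of the 90 genes was -0.305, and Fhit and Wwox lay below it. Under the other scalings tried the median of the 90 genes was -0.13 to -0.08, with that of all tested genes between -0.01 and 0.05.

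**Figure D4:**
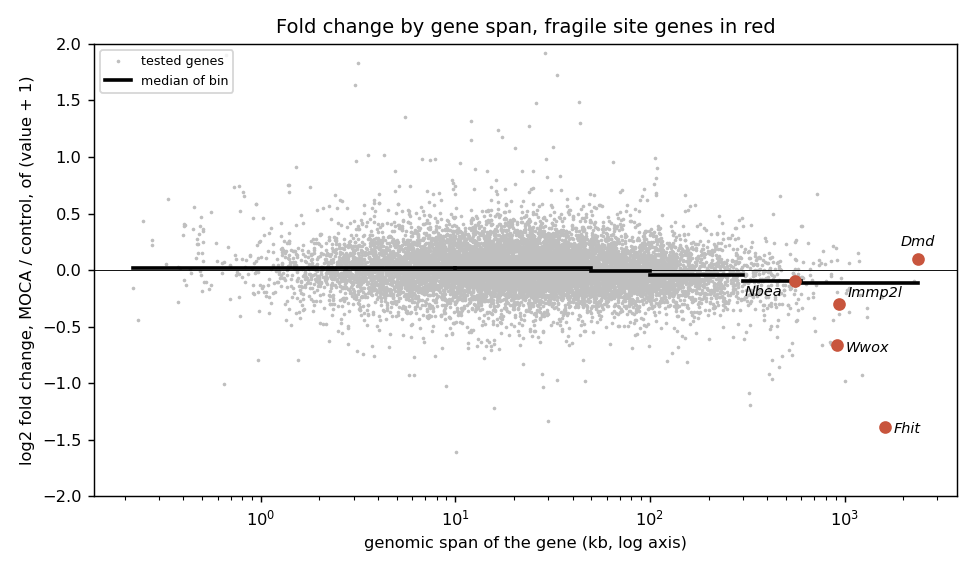
Difference between MOCA and control means of log2(value + 1) (vertical axis) against the genomic span of each tested gene (horizontal log axis, kb), with the median of each span bin as a black line and the fragile site genes named above in red; 3 genes lie outside the plotted range. Bin medians run from 0.01 under 10 kb to -0.11 at 600 kb and over, and Fhit and Wwox sit below the line while Dmd sits above it.

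A wider list of long genes at fragile sites had 38 listed and 24 tested members, of which 3 were called lower, 1 was called higher and 18 had a negative log2 fold change (median -0.08, against 0.01 over all tested genes). Over all tested genes 0.266% were called lower and 0.4% higher, and 48.9% had a negative log2 fold change. Pard3b, a cell polarity protein, went from 8.26 ± 1.45 to 3.68 ± 0.697 (log2 fold change -0.98, limma adjusted p = 0.0131). Gmds, which makes the precursor of fucose donors, went from 1.47 ± 0.355 to 0.508 ± 0.116 (-0.71, limma adjusted p = 0.047). Gmds, like Fhit, met the minimum for testing through the control mice alone, and the list was chosen with earlier results of these data known. The count of called members is therefore given as a description. Dpyd, the enzyme that begins pyrimidine breakdown, went from 811 ± 57.3 to 596 ± 18 (-0.44, limma adjusted p = 0.0273). Exoc4, an exocyst subunit whose gene spans 724.9 kb, moved the other way, from 24.9 ± 3.48 to 40.1 ± 2.12 (0.68, limma adjusted p = 0.0131), with every MOCA liver above every control (as in 5.5% of tested genes). The errors are SD with n = 4.

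Some nearest coding genes were not listed: Clec3a (11.5 kb from Wwox), Sel1l2 (5.59 kb from Macrod2) and both neighbours of Dmd (4930595M18Rik and Fthl17a). Of the listed genes lying beside or inside the fragile site genes, limma and edgeR called none, whereas DESeq2 called Dock4 lower. Of these neighbours, without Dnajb9, Tm4sf1 and 4930452B06Rik, 5 were tested and 4 had a negative log2 fold change. Their median was -0.20, against 0.01 over all tested genes. Tested but outside this count were Dnajb9 (log2 fold change 0.23) and Tm4sf1 (-0.05), so the median depends on which neighbours are counted. Ptprg, Dock4 and Kif16b are themselves long genes (688.6, 400.9 and 283.3 kb). Ptprg, a receptor tyrosine phosphatase gene 391 kb beyond the Fhit start, had 75 ± 2.22 in controls and 65.1 ± 3.29 in MOCA livers (log2 fold change -0.20, limma adjusted p = 0.16). Its MOCA values were all below its control values, as in 4.96% of tested genes. The nearest coding gene on the other side of Fhit, 4930452B06Rik, was at 0.254 ± 0.171 and 0.0483 ± 0.0967, under the minimum for testing. Without that minimum its limma adjusted p was 0.293. Dock4, beside Immp2l, had 66.9 ± 2.38 and 52.9 ± 4.59, with all MOCA values below all control values and an adjusted p of 0.0679 with limma, 0.0708 with edgeR's quasi-likelihood test and 0.00963 with DESeq2. Maf, a transcription factor gene beside Wwox, had 47.4 ± 5.1 and 45.4 ± 5.63 (limma adjusted p = 0.802), and Kif16b, beside Macrod2, had 26.1 ± 3.07 and 21.7 ± 2.07 (limma adjusted p = 0.235).

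Farther coding neighbours were Tm4sf1 after Nbea (6.21 ± 1.3 and 5.88 ± 0.397) and Dnajb9 after Immp2l (97.8 ± 5.71 and 121 ± 51), with limma adjusted p of 0.891 and 0.619. Dclk1 before Nbea (0.0454 ± 0.0576 and 0.0798 ± 0.0819) was not tested. Lrrn3, inside Immp2l, had 4.13 ± 1.1 and 4.52 ± 0.906 (limma adjusted p = 0.77). Mab21l1 inside Nbea (0.0752 ± 0.0562 and 0.159 ± 0.111) and Flrt3 inside Macrod2 (0.26 ± 0.0343 and 0.176 ± 0.109) were too low to test. The libraries were directional, but whether the counting used the strand is not stated in the labels, so reads of a gene and of a partner on the opposite strand cannot be told apart.

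No partner of Fhit or Wwox was called by limma or edgeR. Of 12 tested histidine triad proteins and Fhit partners, 0 were called by limma or edgeR, 2 had an unadjusted p under 0.05 and DESeq2 called 1. Of the 11774 genes with an adjusted p, DESeq2 called 3.29% in either direction. An unadjusted limma p of 0.0491 (Lyst, below) went with an adjusted p of 0.283, so such p-values were common over all tested genes. Here and in the lists below, their counts are a description and are not read as an enrichment. The lowest p belonged to the mitochondrial chaperonins Hspe1 (74.9 ± 11.2 and 97.6 ± 6.1, adjusted p = 0.0976 with limma and 0.032 with DESeq2) and Hspd1 (442 ± 38.6 in controls, log2 fold change 0.19, limma adjusted p = 0.231). Of 13 tested Wwox partners, 0 were called by limma, edgeR or DESeq2 and 0 had an unadjusted p under 0.05; Wwtr1, the coactivator TAZ, had 20 ± 2.52 and 17.1 ± 0.766 (limma adjusted p = 0.309) and Ezr, ezrin, 7.49 ± 0.671 and 6.36 ± 0.953 (limma adjusted p = 0.36).

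Dystrophin binds dystroglycan at the cell surface. Dag1, the dystroglycan gene itself, had 204 ± 13.9 in controls and 169 ± 5.14 in MOCA livers. Every MOCA value was below every control value, as in 4.96% of tested genes. The adjusted p of Dag1 was 0.0928 with limma and 0.0164 with DESeq2. Of the genes with an adjusted p, DESeq2 called 1.53% lower. Dtnb, dystrobrevin beta, had 21.9 ± 2.55 and 17.3 ± 1.99 (limma adjusted p = 0.17). In the list of the dystrophin complex and dystroglycan glycosylation 23 genes were tested, 0 were called by limma or edgeR, 1 by DESeq2 and 5 had an unadjusted p under 0.05, with a median log2 fold change of -0.05.

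The remaining partner lists also held no call by limma or edgeR. Among 20 tested genes of macrodomain and ADP-ribose turnover, 5 had an unadjusted p under 0.05 and DESeq2 called 1. Parp3, an ADP-ribosyltransferase of DNA break repair, had 12.9 ± 2.47 and 19.3 ± 2.2 (adjusted p = 0.0797 with limma and 0.00959 with DESeq2). Tiparp, which limits the aryl hydrocarbon receptor, had 16 ± 2.16 and 12.1 ± 0.866 (limma adjusted p = 0.12). Among 19 mitochondrial proteases and their substrates 4 had an unadjusted p under 0.05 and DESeq2 called 0. Yme1l1, an inner membrane protease, had 98 ± 6.12 and 115 ± 4.05 (limma adjusted p = 0.138), and Gpd2, a substrate of the peptidase that contains Immp2l, 103 ± 6.24 and 83.1 ± 13.6 (limma adjusted p = 0.166). Among 8 BEACH domain proteins, the family of Nbea, 2 had an unadjusted p under 0.05 and DESeq2 called 0; Wdfy3 had 204 ± 15.5 and 177 ± 7.68 (limma adjusted p = 0.193) and Lyst 81.4 ± 10.3 and 70.3 ± 3.77 (limma adjusted p = 0.283).

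Genes that protect fragile sites during replication held no call by limma or edgeR either. Of 40 tested members 0 were called by limma or edgeR, 3 had an unadjusted p under 0.05 and DESeq2 called 1, with a median log2 fold change of 0.01. The translesion polymerase Polk had 6.22 ± 0.239 in controls and 8.83 ± 1.27 in MOCA livers (adjusted p = 0.0848 with limma and 0.0453 with DESeq2). Atrip, the partner of the ATR kinase, had 2.95 ± 0.247 and 4.37 ± 0.668 (limma adjusted p = 0.111). In both Polk and Atrip all MOCA values were above all control values, as in 5.5% of tested genes. Of 42 tested genes for transcription through long genes (topoisomerases, elongation and termination factors), 0 were called by limma, edgeR or DESeq2 and 5 had an unadjusted p under 0.05. Nelfe, of the pausing complex NELF, had 10.4 ± 1.4 and 12.9 ± 0.86 and Paf1, of an elongation complex, 19.6 ± 0.938 and 16.6 ± 1.31 (limma adjusted p = 0.191 and 0.198).

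Ap4m1 (Pearson r = 0.98), Tesk2 (0.97), Mgrn1 (0.96) and Dmgdh (0.96) were among the genes whose log2 values followed Fhit most closely over the 8 mice, taken from tested genes with a mean of at least 5. These points fall into the 2 treatment groups, so r mainly records a difference between groups. Around the group means r was 0.69 for Ap4m1, 0.21 for Tesk2, 0.36 for Mgrn1 and 0.88 for Dmgdh. Fhit had 0 to 2 reads in MOCA livers, so these values rest mostly on the control livers. The genes were also picked for a high r in the same mice. None of these 4 was called (limma adjusted p 0.0626 to 0.0955).

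Marker genes of the cell types in liver gave no call by limma or edgeR. DESeq2 called 4 erythroid markers higher (Hba-a1, Hbb-b1, Hbb-bt and Alas2), and it called 2 hepatocyte markers lower (Trf, adjusted p = 0.00275, and Serpina1c, 0.00695) and 1 stellate cell marker lower (Reln, 0.0243). The tested erythroid markers Hba-a2 (adjusted p = 0.288) and Slc4a1 (0.0801) were not called by DESeq2. Of 11774 genes with an adjusted p, DESeq2 called 207 higher and 180 lower (1.53% lower, 3.29% in either direction). Over all tested genes 48.9% had a negative log2 fold change in the limma fit. All 10 hepatocyte markers had a negative log2 fold change (median -0.15), with a summed value of 110000 to 130000 in control and 95800 to 109000 in MOCA livers. All 6 tested erythroid markers had a positive one (median 0.67; summed values 347 to 638 and 668 to 755). Of the endothelial markers 7 of 9 were negative (546 to 631 and 530 to 550), and of the stellate and fibroblast markers 6 of 10 were negative (560 to 617 and 477 to 584). Of the Kupffer cell and macrophage markers 8 of 9 were positive (309 to 376 and 324 to 427), of the smooth muscle markers 4 of 5 (117 to 162 and 126 to 161), and of the cholangiocyte markers 3 of 5 (55.4 to 66.5 and 49.8 to 70.2). The smooth muscle sums came mostly from Mylk (97.4 to 146 and 107 to 124), the 1 tested member of that list with a negative log2 fold change. Both tested markers of proliferating cells were positive (4.5 to 12.1 and 6.16 to 21.3). Syt1, the single neuronal marker tested, was negative (19.4 and 14.7 on average; the list summed to 18.7 to 23.8 and 14.2 to 20.5). Reln and Syt1 are long genes (460.3 and 513.3 kb), and 70.6% of tested genes spanning 300 to 600 kb were negative. Of the skeletal muscle markers only Ttn was listed, at 0.583 to 1.91 per library. The part of these shifts, and of the shallower MOCA libraries, in the fall of Fhit was not tested.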

How the data were processed

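Ribosomal RNA was depleted from 200 ng of liver RNA and directional MGIEasy libraries were made, per the labels' protocols. Per the submitters' processing notes, the build was mm10 and the tools included Trimmomatic 0.38, besides RSEM, Bowtie2 and edgeR, in no stated order. The authors deposited normalised counts per gene (a scaled signal), with 1 column per mouse. In each column every value (100%) divided by the smallest gave a whole number within 0.001, taken as reads, and the deposited values equal TMM-scaled CPM of these reads.

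The main test was limma 3.58.1 (R 4.3.3) on log2(value + 1) with eBayes and trend, MOCA against control, over genes reaching 1 in at least 4 of 8 libraries. Benjamini-Hochberg adjustment ran over all tested genes. edgeR 4.0.16 and DESeq2 1.42.0 on the recovered reads, and other pseudocounts, filters, scalings, eBayes options, a replicate block and leaving out each mouse were alternatives. limma and edgeR were tested on simulated data. Members and lists were chosen with earlier results of these data known. The rule for the group names 8 genes, of which 2 are not reported here. Named were the members reported, of each list its called genes or the 2 with the smallest p, neighbours, and genes among the 5 most correlated with Fhit. Positions are RefSeq's, matched for 99.6% of genes, and exons are GENCODE M21's. Number of columns not used: 0.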

Additional observations from a re-analysis of the deposited data

Results flagged for a closer look

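Among the 41 genes checked, 4 values stood apart from the other 3 mice of their group, a gap that chance gives in about 1 group in 20; none was a value of the 6 fragile site genes reported. Nelfe was 8.31 in control replicate 1, the lowest of its group, and Tiparp was 10.8 in MOCA replicate 3, likewise the lowest. Of the genes that followed Fhit, Mgrn1 was 56.9 in MOCA replicate 4, the lowest of that group. The Fhit neighbour 4930452B06Rik was highest in MOCA replicate 2 (0.193), at a few reads.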

How the results depend on the processing

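Fhit kept its direction and an adjusted p under 0.05 in all 18 alternatives that gave one (0.000436 to 0.0227). Same-numbered mice did not deviate together (correlation of deviations -0.074 to 0.036). No label pairs mice by number, and these correlations cannot show whether the design did. With the replicate block, 20 genes were called higher and 10 lower, against 48 and 32 without it, and Fhit was called (limma adjusted p = 0.0227). Wwox was called in 3 of 20 alternatives. Immp2l, Nbea and Dmd were called in none of theirs and did not change sign. Fhit and Nbea had no value with a mean of at least 5 required, which left 0 of the 6 fragile site genes reported called lower; robust eBayes called 2, Fhit and Wwox. Leaving out each mouse, with the tested genes kept fixed, gave 1 to 2 of these 6 genes called lower and 0 higher, and 21 to 42 genes called higher and 8 to 35 lower over all. Against 48 higher and 32 lower, DESeq2 called 207 and 180, columns of equal sums 131 and 38, robust eBayes 63 and 53, and upper quartile scaling 45 and 51; the cause was not tested. Depth limits Fhit in MOCA livers (0 to 2 reads) and Macrod2 (10 to 18 reads).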
